A study of Homo sapiens with 8 samples.

Results

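Bile acid synthesis and transport was followed through 10 genes in HepG2 cells, an established human hepatocellular carcinoma line. The genes were taken by name: the synthesis enzymes CYP7A1, CYP8B1, CYP27A1 and CYP7B1, the conjugating enzyme BAAT, the regulators NR1H4, NR0B2 and FGF19, and the transporters ABCB11 and SLC10A1. All 10 were matched among the 20897 genes listed in the files. Cells that received genistein (3 libraries), a soy isoflavone and tyrosine kinase inhibitor, or BMP6 at 50 ng/ml (2 libraries), a bone morphogenetic protein that acts on hepatocytes, were set against cells that received the vehicle DMSO (3 libraries). Treatment lasted 18 h in medium with 1% serum, every well held 1% DMSO, and the libraries of a group are biological replicates according to the series design. The genistein dose is 10 in both sources, but in micromolar in the series design and in millimolar in the treatment protocol, and this could not be settled here. Both treatments were compared with the same 3 DMSO libraries, so the comparisons are not independent. Values are FPKM as deposited, a level per transcript length and library size that allows genes to be set against each other, and the sequencing depth is unknown.

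Hepatocytes make bile acids from cholesterol. The classical pathway starts with CYP7A1, and the alternative one starts with a sterol hydroxylation by CYP27A1 followed by CYP7B1. Bile acids bind the nuclear receptor FXR, the product of NR1H4, which induces the repressor SHP, the product of NR0B2. SHP and the intestinal hormone FGF19 then lower CYP7A1 and CYP8B1 transcription, so that bile acids limit their own synthesis, while the pump ABCB11 moves conjugated bile acids into bile and SLC10A1 takes them up from blood.

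The 2 enzymes that decide how much bile acid is made by the classical pathway, and of which kind, were both at 0 FPKM in every genistein library. CYP7A1 and CYP8B1 averaged 24.6 ± 2.78 and 19.7 ± 4.30 FPKM in DMSO libraries (SD, n = 3). After BMP6, CYP7A1 was listed at 0 as well, whereas CYP8B1 kept a mean of 7.75 ± 2.56 FPKM (SD, n = 2). BAAT and NR1H4 had higher means after each treatment than in DMSO, and CYP27A1 had lower ones, but none of these 3 passed the threshold in either comparison. NR0B2 stayed between 175 and 766 FPKM in the 8 libraries, and CYP7B1, FGF19 and ABCB11 were listed at 0 in each of them.

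Of the 10 genes, 6 had at least 1 FPKM in at least 2 libraries and were tested. These were CYP7A1, CYP8B1, CYP27A1, BAAT, NR1H4 and NR0B2, and the last 4 of them were above 0 in every library. The remaining 4, CYP7B1, FGF19, ABCB11 and SLC10A1, were not tested. An exact 0 in FPKM files can be a failed estimate, so a gene is described as listed at 0, and 7494 of the 20897 genes (35.9%) were listed at 0 in all 8 libraries. Tests were made with limma on log2(FPKM + 1), with p-values adjusted over the 12661 genes that entered the fit and a threshold of 0.05. That scale understates changes of low genes. CYP7A1 passed the filter through its DMSO libraries alone, and CYP8B1 through its BMP6 and DMSO libraries. Their tests, and counts and medians over the 6 genes, are therefore given as a description.

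**Figure D1:**
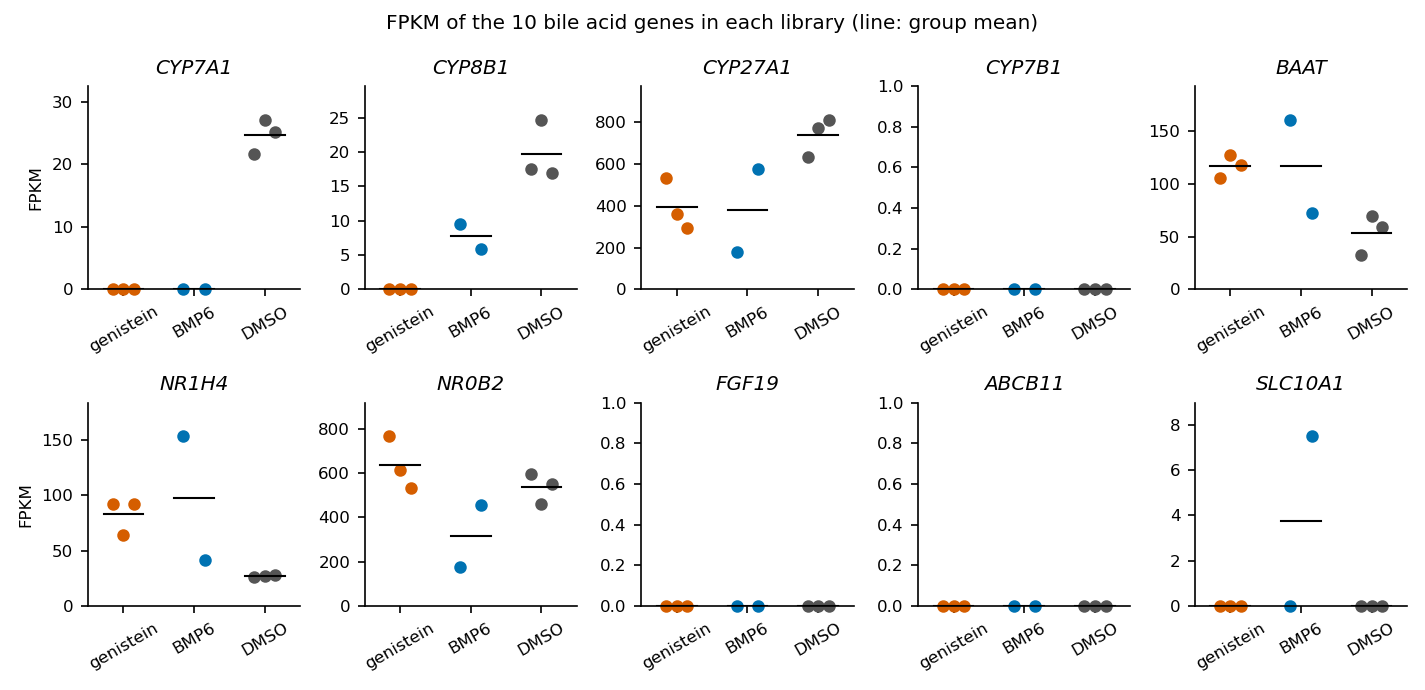
FPKM of the 10 bile acid genes (y axis, linear, own scale per gene) in each genistein, BMP6 and DMSO library (points), with the group mean as a line. CYP7A1 has points above 0 in the DMSO group alone, CYP8B1 in the BMP6 and DMSO groups, and CYP7B1, FGF19 and ABCB11 in none.

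CYP7A1 (ENSG00000167910, hg18 chr8:59565292-59575275) encodes the rate-limiting first enzyme of the classical pathway. It was listed at 0 FPKM in genistein 1, 2 and 3 and in BMP6 1 and 2, against 21.6, 27.1 and 25.2 FPKM in DMSO 1, 2 and 3. The 5 treated libraries were thus all below the 3 DMSO libraries. CYP7A1 was lower after genistein (limma adjusted p = 0.00151) and after BMP6 (limma adjusted p = 0.00751), and no fold is given against a group at 0. Because CYP7A1 entered the fit through the DMSO group alone, a difference from DMSO was built into its entry, and a treated group at 0 adds no spread of its own, so the library values carry the result and these p-values are not independent of the filter. In an exact permutation test (two-sided) p was 0.1 for genistein and 0.2 for BMP6, the smallest values that 3 against 3 and 2 against 3 libraries allow. The difference after genistein passed in all 19 other settings tried, at limma adjusted p of at most 0.0221. The difference after BMP6 was lost without DMSO 2 (limma adjusted p = 0.0934) and among genes with a mean of at least 5 FPKM (limma adjusted p = 0.0737), in a range over all settings of 0.00136 to 0.107. Of all tested genes, 145 (1.15%) had 0 FPKM throughout the genistein group and more than 0 in each DMSO library. The same was true of 185 genes (1.46%) for BMP6 and of 74 genes (0.584%) for both treatments.

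CYP8B1 (ENSG00000180432, hg18 chr3:42888688-42892661) encodes the sterol hydroxylase that directs synthesis towards cholic acid. It was listed at 0 FPKM in genistein 1, 2 and 3, stood at 9.56 and 5.94 FPKM in BMP6 1 and 2, and at 17.6, 24.7 and 16.9 FPKM in DMSO 1, 2 and 3. The 3 groups did not overlap, with the BMP6 libraries between the other 2 groups. CYP8B1 was lower after genistein than in DMSO (limma adjusted p = 0.00191, exact permutation p = 0.1), and passed in all 19 other settings at limma adjusted p of at most 0.0261. It entered the fit through its BMP6 and DMSO libraries, and the genistein group at 0 adds no spread of its own. The library values therefore carry the result, and these p-values are not independent of the filter. After BMP6 the log2 difference from DMSO was -1.26 ± 0.45 (SE; 95% interval -2.29 to -0.22), which did not pass (limma adjusted p = 0.196). The BMP6 mean was 0.393 times the DMSO mean.

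CYP8B1 was also lower after genistein than after BMP6 (limma adjusted p = 0.0202; exact permutation p = 0.2, the smallest that design allows). The same limit of filter and spread holds for this limma value. Of all tested genes, 30 (0.237%) were listed at 0 in the genistein libraries and above 0 in all BMP6 and DMSO libraries. The difference between the treatments depended on single libraries: it was lost without genistein 1, genistein 3, BMP6 1, DMSO 2 or DMSO 3, at limma adjusted p of 0.076, 0.0941, 0.0712, 0.058 and 0.0511. It was also lost with quantile normalization (limma adjusted p = 0.0611), among genes with a mean of at least 5 FPKM (0.0617) and in a fit on the genistein and BMP6 libraries alone (0.161), in a range over all settings of 0.00803 to 0.161.

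By pattern over the 8 libraries, the tested genes most like CYP7A1 were SMPX, ANKRD55 and ANKRD36 (Pearson r = 1.000 each on log2(FPKM + 1)). SMPX, a gene of a small muscle protein, was listed at 0 in all genistein and BMP6 libraries and stood at 38.6, 44.2 and 44.2 FPKM in DMSO 1, 2 and 3. ANKRD55 and ANKRD36, genes of ankyrin repeat proteins, had the same zeros, and stood at 4.90 to 6.01 and 11.8 to 13.4 FPKM in DMSO. ANKRD36 belongs to a family of near-identical copies, so its reads could be split among them. These correlations describe the alternation of zeros and DMSO values and carry no test.

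For CYP8B1 the nearest genes were ACSM2A (r = 0.987), SORBS2 (r = 0.985) and AGT (r = 0.983). AGT, which encodes angiotensinogen, had 1903, 1745 and 1561 FPKM in the genistein libraries, 3225 and 3338 in the BMP6 libraries and 3931, 4781 and 4519 in the DMSO libraries. ACSM2A, a gene of a mitochondrial acyl-CoA synthetase with a near-identical paralog, had 8.96 to 11.4 FPKM after genistein, 91.5 and 39.2 after BMP6 and 97.7 to 173 in DMSO. SORBS2, an adaptor protein gene, had 9.41 to 11.5 FPKM after genistein, 31.2 and 20.5 after BMP6 and 39.7 to 49.5 in DMSO. In all 3 genes, as in CYP8B1, the BMP6 libraries lay between the genistein and DMSO libraries. The genes were picked for their likeness to CYP8B1 over these same libraries, so the shared order largely follows from that choice and carries no test.

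CYP27A1 (ENSG00000135929, hg18 chr2:219354745-219388254) encodes the mitochondrial sterol hydroxylase that opens the alternative pathway and oxidizes the side chain in both pathways. It had 530.2, 361 and 295 FPKM in genistein 1, 2 and 3, 180.4 and 574 FPKM in BMP6 1 and 2, and 634, 771 and 810.0 FPKM in DMSO 1, 2 and 3. All 5 treated libraries were below the 3 DMSO libraries, and the BMP6 pair spanned the genistein libraries. The log2 difference from DMSO was -0.93 ± 0.46 after genistein (SE; 95% interval -2.00 to 0.13; limma adjusted p = 0.213; exact permutation p = 0.1). After BMP6 it was -1.19 ± 0.52 (95% interval -2.38 to 0.00; limma adjusted p = 0.265; exact permutation p = 0.2). Both intervals include 0 and also differences of -2.00, so CYP27A1 was not shown to be level either. The genistein difference passed with median-of-ratios scaling (limma adjusted p = 0.0441), quantile normalization (0.0346) and equal FPKM totals (0.0304), in a range over all settings of 0.0304 to 0.455. The BMP6 difference passed with equal FPKM totals (limma adjusted p = 0.0481). Its log2 size ran from -2.02 to -0.36 when 1 library was left out, and was -2.02 without BMP6 2, which leaves BMP6 1 alone in its group.

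CYP7B1 (ENSG00000172817, hg18 chr8:65671246-65873902), which encodes the oxysterol hydroxylase that follows CYP27A1 in the alternative pathway, was listed at 0 in all 8 libraries. Of the 4 synthesis enzymes among the 10 genes, CYP27A1 alone was therefore above 0 in every library.

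BAAT (ENSG00000136881, hg18 chr9:103162890-103173578) encodes the enzyme that joins bile acids to glycine or taurine. It had 106, 128 and 118 FPKM in genistein 1, 2 and 3, 161 and 72.9 FPKM in BMP6 1 and 2, and 33.0, 69.7 and 58.8 FPKM in DMSO 1, 2 and 3. All treated libraries were above the DMSO libraries, BMP6 2 by a narrow margin. The log2 difference from DMSO was 1.17 ± 0.41 after genistein (SE; 95% interval 0.24 to 2.10; limma adjusted p = 0.0992; exact permutation p = 0.1), and the mean was 2.18 times that of DMSO. After BMP6 it was 1.06 ± 0.45 (95% interval 0.02 to 2.10; limma adjusted p = 0.259; exact permutation p = 0.2). The genistein difference passed in 3 fits: without BMP6 1 (limma adjusted p = 0.0429), without BMP6 2 (0.0412) and with genistein and DMSO alone (0.0418). Its range over all settings was 0.0412 to 0.235.

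NR1H4 (ENSG00000012504, hg18 chr12:99391810-99481775) encodes FXR, the bile acid receptor. It had 92.3, 64.3 and 92.2 FPKM in genistein 1, 2 and 3, 153 and 41.7 FPKM in BMP6 1 and 2, and 25.8, 27.2 and 27.5 FPKM in DMSO 1, 2 and 3. Every treated library was above the DMSO libraries, which lay close together, while BMP6 1 stood far above BMP6 2. The log2 difference from DMSO was 1.57 ± 0.47 after genistein (SE; 95% interval 0.49 to 2.65; limma adjusted p = 0.0651; exact permutation p = 0.1), and the mean was 3.09 times that of DMSO. After BMP6 it was 1.55 ± 0.53 (95% interval 0.34 to 2.75; limma adjusted p = 0.182; exact permutation p = 0.2). The genistein difference passed without BMP6 1 (limma adjusted p = 0.00965), without BMP6 2 (0.00899), with genistein and DMSO alone (0.00921) and when DMSO 1, genistein 2 and BMP6 1 were removed together (0.0135), in a range of 0.00899 to 0.193. The log2 size of the BMP6 difference ran from 0.62 to 2.47 when 1 library was left out. It was 2.47 without BMP6 2, which leaves BMP6 1 alone in its group, and every other setting left the difference above the threshold.

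For these 3 genes no difference between the treatments was detected. The log2 difference of genistein from BMP6 was 0.25 ± 0.52 for CYP27A1 (SE; 95% interval -0.94 to 1.44; limma adjusted p = 0.882). It was 0.11 ± 0.45 for BAAT (95% interval -0.93 to 1.15; limma adjusted p = 0.956) and 0.03 ± 0.53 for NR1H4 (95% interval -1.18 to 1.23; limma adjusted p = 1). These intervals are wide and do not show that the treatments act alike. BMP6 1 and BMP6 2 lay on opposite sides of the genistein libraries for all 3 genes.

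NR1H4, BAAT and CYP27A1 are shown by the 250 bases before a transcription start because their treated libraries all lay on one side of the DMSO libraries in both comparisons. The sequences are from RefSeq (GRCh38.p14, another build than the hg18 of the files), written 5′ to 3′ on the gene's strand. Capitals mark matches, on either strand, to the nuclear receptor half-site AGGTCA and to GGCGCC, a GC-rich site bound by BMP-activated SMAD proteins. The window of NR1H4 is chr12:100503110-100503359 on the plus strand, that of BAAT chr9:101383874-101384123 on the minus strand (the upstream of 2 listed starts), and that of CYP27A1 chr2:218781897-218782146 on the plus strand.
NR1H4: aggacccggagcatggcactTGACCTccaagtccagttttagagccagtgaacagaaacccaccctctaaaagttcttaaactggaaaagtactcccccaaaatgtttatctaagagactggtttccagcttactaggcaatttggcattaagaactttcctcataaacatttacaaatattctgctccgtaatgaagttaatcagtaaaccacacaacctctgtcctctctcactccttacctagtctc
BAAT: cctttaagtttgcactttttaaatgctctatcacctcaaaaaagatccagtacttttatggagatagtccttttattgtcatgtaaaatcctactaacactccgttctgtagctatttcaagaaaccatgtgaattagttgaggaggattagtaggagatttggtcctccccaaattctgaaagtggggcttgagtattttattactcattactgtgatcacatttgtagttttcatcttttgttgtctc
CYP27A1: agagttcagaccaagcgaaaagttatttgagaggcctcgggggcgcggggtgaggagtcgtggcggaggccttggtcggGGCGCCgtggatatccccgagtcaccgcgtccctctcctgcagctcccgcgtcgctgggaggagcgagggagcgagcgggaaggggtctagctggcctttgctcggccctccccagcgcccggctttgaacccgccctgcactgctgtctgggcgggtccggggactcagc

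The NR1H4 window held 1 half-site, written TGACCT on this strand, that begins 230 bases before the start. The CYP27A1 window held 1 GGCGCC, 171 bases before the start. The BAAT window held neither, and the window of its other start held 1 half-site. Among 35097 windows of the same length, 12.1% held AGGTCA and 16.4% held GGCGCC on either strand. A match is a run of letters and no evidence of binding. Windows of 5 of the 10 genes were searched. That of SLC10A1, listed at 0 in 7 of 8 libraries, also held 1 AGGTCA, which begins 149 bases before the start. That of ABCB11 held neither motif. CYP7A1 and CYP8B1 also had all treated libraries on one side of the DMSO libraries. Windows of chromosome 8, which holds CYP7A1 and CYP7B1, are not reported here, and none was available for CYP8B1.

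NR0B2 (ENSG00000131910, hg18 chr1:27110566-27113047) encodes SHP, the repressor of CYP7A1 and CYP8B1 that FXR induces. It had 766, 614 and 531 FPKM in genistein 1, 2 and 3, 175 and 455 FPKM in BMP6 1 and 2, and 598, 462 and 553 FPKM in DMSO 1, 2 and 3. Genistein and DMSO libraries overlapped, and both BMP6 libraries were below all others. The log2 difference from DMSO was 0.24 ± 0.40 after genistein (SE; 95% interval -0.69 to 1.16; limma adjusted p = 0.726; exact permutation p = 0.4). After BMP6 it was -0.92 ± 0.45 (95% interval -1.95 to 0.11; limma adjusted p = 0.308; exact permutation p = 0.2). Between genistein and BMP6 it was 1.15 ± 0.45 (95% interval 0.12 to 2.18; limma adjusted p = 0.287; exact permutation p = 0.2). Without BMP6 2, which leaves BMP6 1 alone in its group, the log2 difference of BMP6 from DMSO was -1.60 and that of genistein from BMP6 was 1.84. Every other setting left both above the threshold.

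Set against its inducer, NR0B2 was 8.30, 9.54 and 5.76 times the FPKM of NR1H4 in genistein 1, 2 and 3. The ratio was 1.14 and 10.9 in BMP6 1 and 2, and 23.2, 17.0 and 20.1 in DMSO 1, 2 and 3. The 5 treated libraries were below the DMSO libraries, and BMP6 1 was the lowest. The ratio was chosen after its values were seen and carries no test.

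FGF19 (ENSG00000162344, hg18 chr11:69222188-69228287), the hormone that carries the FXR signal from gut to liver, was listed at 0 in all 8 libraries. ABCB11 (ENSG00000073734, hg18 chr2:169487694-169596079), the bile salt export pump and a classical FXR target, was listed at 0 in all 8 as well. SLC10A1 (ENSG00000100652, hg18 chr14:69312342-69333759), the sodium-dependent uptake carrier NTCP, stood at 7.48 FPKM in BMP6 2 and was listed at 0 in the other 7 libraries. All 10 genes had the status OK in every library, and none of their spans overlapped another listed gene.

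**Figure D2:**
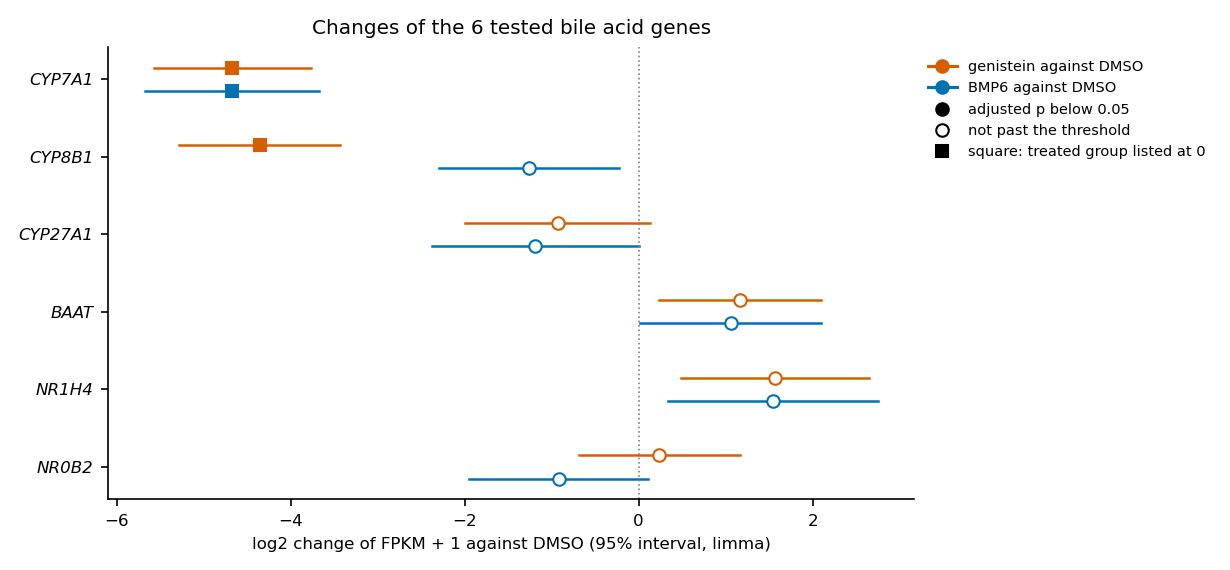
Log2 difference of FPKM + 1 from DMSO (x axis) with its 95% interval from limma for the 6 tested bile acid genes, after genistein and after BMP6. Filled symbols passed the threshold: CYP7A1 in both comparisons and CYP8B1 after genistein, where squares mark a treated group listed at 0 whose fitted size depends on the added constant of 1.

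Of the 6 tested genes, 2 fell and 0 rose after genistein, where 12.1% of all tested genes passed in either direction, 6.11% higher and 5.96% lower. After BMP6, 1 of the 6 fell and 0 rose, against 0.837% of all tested genes in either direction, 0.34% higher and 0.498% lower. Between genistein and BMP6, 1 of the 6 was lower after genistein, against 1.39% in either direction, 0.64% higher and 0.75% lower. All these calls were of CYP7A1 or CYP8B1, with a treated group listed at 0. Both entered the fit through groups in which they were higher, and the members were chosen with earlier results of these data known. The counts and medians in this paragraph are therefore a description and show no enrichment. The groups did not overlap for 5 of the 6 genes after genistein (2 higher, 3 lower), against 43.9% of all tested genes (23.3% higher, 20.6% lower). They did not overlap for 6 of 6 after BMP6 (2 higher, 4 lower), against 33.3% (16.1% higher, 17.3% lower). Between the treatments they did not overlap for 2 of 6 (1 higher, 1 lower), against 28.9% (16.3% higher, 12.6% lower). The median log2 difference of the 6 was -0.35 after genistein, -1.05 after BMP6 and 0.07 between the treatments, where all tested genes had medians of 0.05, -0.03 and 0.12.

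NR0B2 led the levels in genistein libraries and CYP27A1 in the other groups. In genistein libraries NR0B2 had the highest mean (637 FPKM), followed by CYP27A1 (395), BAAT (117) and NR1H4 (82.9), and no 2 neighbours overlapped, although the lowest NR0B2 library (531) lay just above the highest CYP27A1 library (530.2). In BMP6 libraries the order was CYP27A1 (377), NR0B2 (315), BAAT (117), NR1H4 (97.6) and CYP8B1 (7.75), and CYP27A1 overlapped NR0B2 as BAAT overlapped NR1H4. In DMSO libraries CYP27A1 (738) and NR0B2 (538) came before BAAT (53.8), NR1H4 (26.8), CYP7A1 (24.6) and CYP8B1 (19.7), and CYP7A1 overlapped both NR1H4 and CYP8B1. NR1H4 was thus at the level of CYP7A1 in DMSO, whereas CYP7A1 was listed at 0 in the treated libraries. The summed FPKM of the 10 genes was 1495, 1166 and 1036 in genistein libraries, 679.5 and 1157 in BMP6 libraries and 1329.9, 1382 and 1491 in DMSO libraries, with CYP27A1 and NR0B2 as its main parts.

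The libraries themselves differed. FPKM totals ran from 1704599 to 3105197. The first 3 principal components held 35.8%, 21.7% and 19.5% of variance, and BMP6 1 stood apart on the second and DMSO 1 and genistein 2 on the third. DMSO 1 and genistein 2 had 1679 and 2167 tested genes at 0, against 356 to 962 in the others. CYP7A1 and CYP8B1 were above 0 in DMSO 1 and at 0 in genistein 1 and 3. With DMSO 1, genistein 2 and BMP6 1 removed together, their log2 differences after genistein were -4.76 and -4.42. That fit again set genistein libraries listed at 0 against DMSO libraries above 0, so it is not separate support. All 8 hepatocyte markers were above 0 in every library, with summed FPKM of 81976 to 113194 after genistein, 149082 to 212006 after BMP6 and 108751 to 136425 in DMSO. Of these, 1 was called after genistein, against 12.1% of all tested genes. This was TTR, which fell (log2 change -2.64 ± 0.52 SE, limma adjusted p = 0.0193). After BMP6 limma called 0 of 8, against 0.837% of all tested genes, and 3 (37.5%) had an unadjusted p under 0.05, against 18.9%. Of these 3, TTR and FGB were lower than in DMSO and AFP was higher. The summed FPKM mixes opposite moves. Mean ALB was 51777 FPKM after genistein, 101374 after BMP6 and 29743 in DMSO, and mean APOA1 was 8219, 20060.4 and 53321. The log2 difference was negative for 5 of the 8 markers after genistein and for 4 after BMP6.

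Of 6 biliary markers, CFTR was listed at 0 throughout, KRT7 was at most 0.816 FPKM, and the other 4 were above 0 in every library and went both ways. SOX9 and EPCAM were lower than in DMSO (log2 differences -2.30 and -1.62 after genistein, -2.46 and -2.04 after BMP6), and SPP1 and KRT19 had positive differences (1.23 and 0.59 after genistein, 3.69 and 0.79 after BMP6). SOX9 after genistein (limma adjusted p = 0.0179) and SPP1 after BMP6 (0.0209) passed the threshold. The summed list was 936 to 1496 FPKM in genistein libraries, 2867 to 3643 in BMP6 libraries and 1671 to 2343 in DMSO libraries. SPP1 gave 2553 and 1528 FPKM of it in BMP6 1 and 2, and KRT19 gave 1645 in BMP6 2.

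Of 7 intestinal markers, CDX1, CDX2, SI, FABP6 and LCT were listed at 0 throughout, and VIL1 was at 274 to 409 FPKM after genistein, 498 and 585 after BMP6 and 266 to 581 in DMSO. FABP2 was listed at 0 in all treated libraries and stood at 4.12, 11.4 and 9.46 FPKM in DMSO, through which alone it entered the fit. The summed intestinal list was 274 to 409 FPKM in genistein libraries, 498 to 585 in BMP6 libraries and 270 to 590 in DMSO libraries. Of 5 stromal markers, COL1A1, COL3A1 and DCN were listed at 0 throughout. ACTA2 was at 139 to 176 FPKM after genistein, 129.9 and 247 after BMP6 and 248 to 263 in DMSO, and PDGFRB at 0 to 2.92, 14.3 to 19.5 and 1.88 to 4.91 FPKM in the genistein, BMP6 and DMSO groups. Neither passed, and the summed stromal list was 139 to 179, 149 to 261 and 253 to 265 FPKM in those groups.

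Of 4 leukocyte markers, PTPRC and CD3E were listed at 0 throughout. The other 2 were called in opposite directions after genistein, where 12.1% of all tested genes were called. CD68 was at 68.8 to 86.7 FPKM after genistein, 41.7 and 59.6 after BMP6 and 31.4 to 40.6 in DMSO (log2 change after genistein 1.18 ± 0.30, limma adjusted p = 0.0406), and its span overlaps EIF4A1. LYZ was at 1149 to 1839 FPKM after genistein, 1493 and 2344 after BMP6 and 3219 to 4807 in DMSO (log2 change after genistein -1.58 ± 0.42, limma adjusted p = 0.0448). The summed leukocyte list was 1218 to 1923 FPKM in genistein libraries, 1552 to 2385 in BMP6 libraries and 3250 to 4839 in DMSO libraries. In bulk RNA, fewer cells that express a gene and less RNA of it per cell cannot be told apart, and the part of these marker changes in the bile acid results was not tested.

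Beyond the 10 genes, 52 further genes of bile acid synthesis, conjugation, transport and regulation were listed, 49 were matched and 41 were tested. AMACR, UGT1A3 and GPBAR1 were not analysed here. After genistein 7 of the 41 fell and 4 rose, against 12.1% of all tested genes in either direction. Their median log2 difference was -0.47, against 0.05 for all tested genes. Because the lists were chosen with earlier results of these data known, such counts and medians are a description and no test of the pathway. After BMP6, limma called 0 of 41 at the adjusted threshold and 6 (14.6%) at an unadjusted p under 0.05, a share below the 18.9% of all tested genes. Between genistein and BMP6 it called 0 of 41, and 12 (29.3%) at an unadjusted p under 0.05, against 14.7% of all tested genes.

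**Figure D3:**
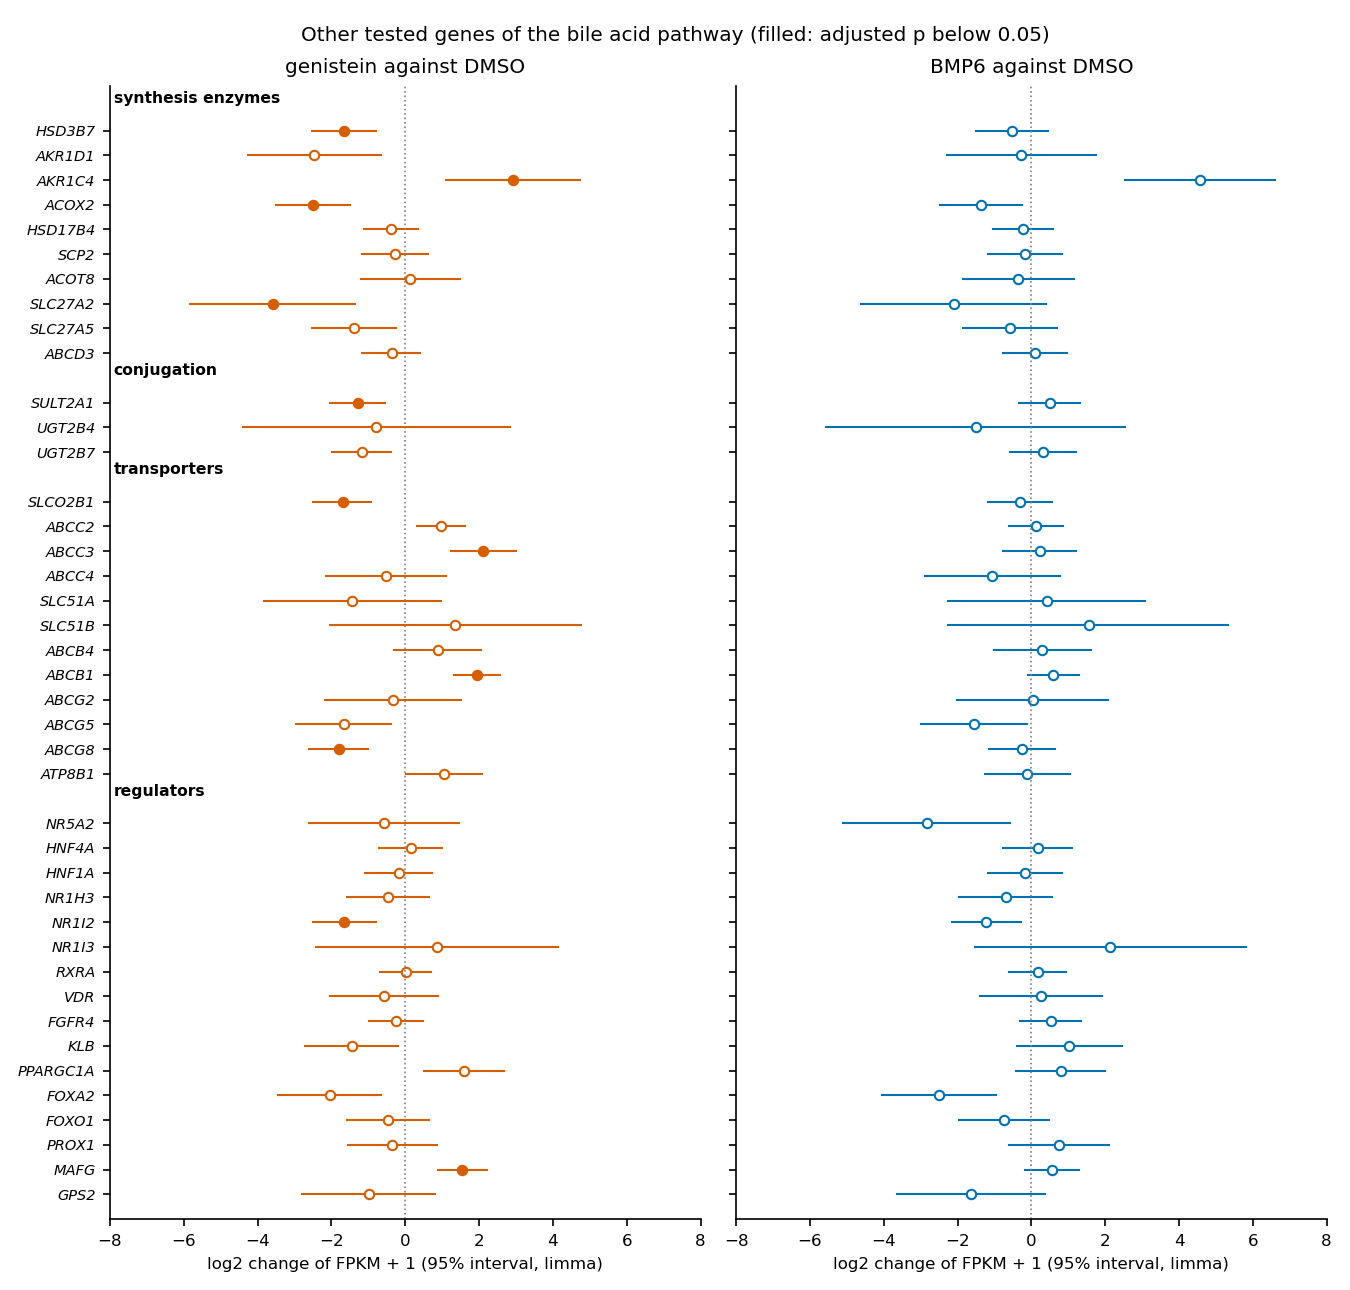
Log2 difference of FPKM + 1 (x axis, 95% interval from limma) from DMSO for the 41 other tested genes of the pathway, by role, after genistein (left) and BMP6 (right). Filled circles passed the threshold, which 11 genes did after genistein and none after BMP6.

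Of 10 other synthesis enzymes tested, 3 fell and 1 rose after genistein, where 12.1% of all tested genes passed in either direction. HSD3B7, the dehydrogenase that acts after CYP7A1 on the sterol ring, had 51.8, 49.9 and 37.9 FPKM in genistein libraries, 69.3 and 154 in BMP6 libraries and 193, 142 and 120.3 in DMSO libraries. It fell after genistein by 1.67 on the log2 scale (SE 0.38, limma adjusted p = 0.0287), with no overlap of the 2 groups. ACOX2, the peroxisomal oxidase that shortens the side chain, had 32.6, 13.9 and 24.2 FPKM after genistein, 32.7 and 75.2 after BMP6 and 106, 145 and 141 in DMSO. It fell after genistein (log2 change -2.49 ± 0.44, limma adjusted p = 0.0133), and both BMP6 libraries were below the DMSO libraries. SLC27A2, an acyl-CoA synthetase that activates bile acid intermediates, had 17.6, 0 and 10.9 FPKM after genistein, 12.7 and 19.7 after BMP6 and 74.0, 87.7 and 57.2 in DMSO (log2 change after genistein -3.59 ± 0.98, limma adjusted p = 0.0498). Its 5 treated libraries were all below the DMSO libraries. The size of its change after genistein was unsteady, at -4.40 to -2.30 when 1 library was left out and -4.74 to -2.27 over the other settings. Its value of 0 is in genistein 2, the library with the most tested genes at 0 (2167).

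AKR1C4, a reductase of the sterol nucleus, went the other way. It had 188, 58.4 and 147 FPKM after genistein, 365 and 380.4 after BMP6 and 3.81, 16.0 and 46.0 in DMSO. It rose after genistein (log2 change 2.92 ± 0.79, limma adjusted p = 0.0495), and its log2 difference after BMP6 was 4.58 ± 0.89 (limma adjusted p = 0.064). AKR1C4 shares sequence with near-identical paralogs, so its reads could be split among them. The BMP6 difference passed in 6 other settings, at limma adjusted p of 0.0273 to 0.042. The 4 enzymes of highest mean that did not pass were HSD17B4, SCP2, ABCD3 and ACOT8, which serve peroxisomal side-chain oxidation and its import and release steps. Their log2 differences after genistein ran from -0.38 for HSD17B4 to 0.14 for ACOT8, and the span of ACOT8 overlaps SNX21. CYP39A1, CYP46A1 and CH25H, the hydroxylases of minor oxysterol routes, were listed at 0 in all libraries.

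Of 3 tested enzymes that sulfate or glucuronidate bile acids, SULT2A1 alone passed after genistein, where 12.1% of all tested genes did. It fell (log2 change -1.29 ± 0.33, limma adjusted p = 0.0406). This sulfotransferase had 107, 58.9 and 75.3 FPKM after genistein, 239 and 307 after BMP6 and 202, 154 and 226 in DMSO. The genistein libraries were below and the BMP6 libraries above the DMSO libraries. UGT2B7, a glucuronosyltransferase, had 60.8, 33.0 and 37.3 FPKM after genistein, 114 and 129.7 after BMP6 and 128, 95.7 and 74.6 in DMSO, and did not pass (log2 difference -1.18 ± 0.35 after genistein, limma adjusted p = 0.0627). UGT2B7 and UGT2B4 belong to a family of near-identical copies, and UGT2B7 overlaps UGT2B11. CYP3A4, which hydroxylates bile acids, was listed at 0 throughout.

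Of 12 tested transporters, 2 rose and 2 fell after genistein, against 12.1% of all tested genes in either direction. ABCB1, the efflux pump P-glycoprotein and a close relative of ABCB11, had 230.0, 199 and 232 FPKM after genistein, 96.0 and 76.0 after BMP6 and 51.2, 64.3 and 53.9 in DMSO. It rose after genistein (log2 change 1.95 ± 0.27, limma adjusted p = 0.00692), a call that all 19 other settings kept, and its span overlaps RUNDC3B. ABCC3, a basolateral exporter of bile acid conjugates, had 216, 178 and 159 FPKM after genistein, 32.2 and 72.8 after BMP6 and 31.0, 53.4 and 43.1 in DMSO (log2 change after genistein 2.11 ± 0.39, limma adjusted p = 0.0151). Its genistein libraries stood above all 5 others. ABCC2, the canalicular exporter of conjugates, had 788, 583 and 591 FPKM after genistein, 374 and 352 after BMP6 and 296, 374 and 330.1 in DMSO, also without overlap, but did not pass (log2 difference 0.96 ± 0.29, limma adjusted p = 0.0634). ABCB4, the phospholipid exporter of bile, and ATP8B1, a flippase of the canalicular membrane, did not pass either, with log2 differences of 0.88 ± 0.51 and 1.05 ± 0.45.

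SLCO2B1, an organic anion uptake carrier, fell after genistein (log2 change -1.70 ± 0.34, limma adjusted p = 0.0197), with 4.84, 5.92 and 6.17 FPKM after genistein, 19.0 and 14.2 after BMP6 and 20.6, 19.1 and 22.0 in DMSO. ABCG8, a subunit of the canalicular cholesterol exporter, fell as well (log2 change -1.80 ± 0.35, limma adjusted p = 0.0177). It had 6.45, 4.97 and 5.52 FPKM after genistein, 19.9 and 17.1 after BMP6 and 17.9, 22.7 and 26.7 in DMSO. Its partner ABCG5 had 34.2, 18.8 and 20.2 FPKM after genistein, 11.9 and 53.1 after BMP6 and 57.9, 104 and 75.5 in DMSO. The ABCG5 difference after genistein was of like size but did not pass (-1.67 ± 0.56, limma adjusted p = 0.0888). The bile acid uptake carriers SLCO1B1, SLCO1B3, SLCO1A2 and SLC10A2 were listed at 0 in all libraries, as was SLC10A1 in 7 of 8.

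ABCG5 and ABCG8 lie head to head, and the 131 bases between their RefSeq starts are shown because both genes had lower values after genistein (GRCh38.p14, chr2:43838840-43838970, plus strand, written 5′ to 3′). Neither AGGTCA nor GGCGCC occurs in it on either strand, so it has no capitals.
ABCG5 and ABCG8 interval: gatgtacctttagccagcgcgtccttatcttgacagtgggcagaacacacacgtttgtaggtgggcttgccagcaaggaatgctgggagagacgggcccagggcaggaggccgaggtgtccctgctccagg

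Of 16 other regulators tested, 1 rose and 1 fell after genistein, a share near the 12.1% of all tested genes that passed in either direction. MAFG, a small Maf protein known as a repressor of bile acid synthesis genes downstream of FXR in mouse liver, had 167, 147 and 142 FPKM after genistein, 64.6 and 89.5 after BMP6 and 63.0, 48.3 and 44.6 in DMSO. It rose after genistein (log2 change 1.54 ± 0.29, limma adjusted p = 0.0163), and both BMP6 libraries were also above the DMSO libraries. NR1I2, which encodes the xenobiotic and bile acid sensor PXR, had 17.8, 11.3 and 13.6 FPKM after genistein, 13.7 and 26.6 after BMP6 and 42.3, 45.1 and 50.7 in DMSO. It fell after genistein (log2 change -1.65 ± 0.37, limma adjusted p = 0.0281), and after BMP6 its difference was -1.22 ± 0.41 (limma adjusted p = 0.182). FOXA2, a liver transcription factor, had 107, 123 and 43.4 FPKM after genistein, 27.3 and 131 after BMP6 and 385, 314 and 343 in DMSO. Its 5 treated libraries were all below the DMSO libraries, with log2 differences of -2.04 ± 0.61 after genistein (limma adjusted p = 0.0635) and -2.51 ± 0.68 after BMP6 (0.126).

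HNF4A, an activator of CYP7A1 and CYP8B1, had 275, 201 and 345 FPKM after genistein, 381 and 191 after BMP6 and 208, 227 and 296 in DMSO, with overlapping groups (log2 difference after genistein 0.15 ± 0.37, 95% interval -0.70 to 1.00). FGFR4, the liver receptor of FGF19, had 371, 322 and 298 FPKM after genistein, 428 and 736 after BMP6 and 339, 389 and 455 in DMSO (log2 difference after genistein -0.25 ± 0.32, 95% interval -0.98 to 0.48). GPS2, a corepressor subunit whose span overlaps NEURL4, had a log2 difference of -0.99 ± 0.78 after genistein. NR5A2, a nuclear receptor that activates CYP7A1 and CYP8B1 and that was chosen after its values were seen, had 7.87, 0 and 11.4 FPKM after genistein. It was at 0 in BMP6 1 and 2 and stood at 6.93, 5.33 and 6.23 FPKM in DMSO, and the BMP6 difference did not pass (limma adjusted p = 0.189).

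Of the 11 calls after genistein, that of ABCB1 held whichever library was left out. ACOX2 lost its call without genistein 3 or DMSO 2, and ABCC3 without any of the genistein libraries or DMSO 2. SULT2A1, HSD3B7 and NR1I2 lost theirs without any 1 of the 6 genistein and DMSO libraries, and AKR1C4, MAFG, ABCG8, SLCO2B1 and SLC27A2 without 4 or 5 of them, at limma adjusted p of at most 0.151. The count of 11 was 3, 4 and 1 without genistein 1, 2 and 3, 7, 1 and 4 without DMSO 1, 2 and 3, and 18 without BMP6 1 or BMP6 2. Calls after BMP6 appeared without BMP6 2, and they rest on BMP6 1 alone. AKR1C4 and KLB, the coreceptor of FGF19, were then higher, and ACOX2, ABCG5, NR1I2, FOXA2 and GPS2 were lower. The BMP6 libraries were far apart for some of these genes: BMP6 1 and 2 had 92.7 and 23.2 FPKM of KLB, 29.9 and 264 of GPS2 and 11.9 and 53.1 of ABCG5. They were close for AKR1C4, at 365 and 380.4 FPKM.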

How the data were processed

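PolyA RNA of 8 HepG2 libraries was sequenced on a Genome Analyzer II, per the labels' protocols. The deposited files give 1 FPKM value per Ensembl gene, computed by the authors. The submitters' processing notes name the build hg18, the aligners TopHat 1.1.0 and Bowtie and the programs Cuffdiff and Cufflinks 1.0.3, and their settings are not given in the sources used here. No read counts are given, so no counting interval or detection floor was computed. Groups came from the sample titles.

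Gene IDs were given symbols from a table of names. The test kept genes that reached 1 FPKM in 2 or more libraries. All 8 libraries entered 1 limma fit (3.58.1, R 4.3.3) on log2(FPKM + 1) with an intensity trend and 5 residual degrees of freedom, two-sided, with Benjamini-Hochberg adjustment over 12661 genes. Exact permutation tests used SciPy 1.17.1 (Python 3.11.15). The limma script was tested on simulated data. The members and lists were chosen with earlier results of these data known. Of the further pathway genes, those past the threshold against DMSO and the 4 of highest mean per list were named, with the 3 nearest patterns of each called member; NR5A2 and KLB were named after their values were seen. Alternatives covered the pseudocount, filter, scaling, variance model, samples in the fit, replicate block and left-out libraries. Equal FPKM totals and the joint removal of DMSO 1, genistein 2 and BMP6 1 were added after seeing the data. Promoter windows came from RefSeq.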

Additional observations from a re-analysis of the deposited data

How the results depend on the processing

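The calls of CYP7A1 and CYP8B1 after genistein held in all 19 other settings. Each setting again set a genistein group listed at 0 against DMSO libraries above 0, so this agreement is not separate support. The count of called members after genistein, 2 of 6, was 4 in the fit on genistein and DMSO alone, and 2 to 4 when 1 library was left out. After BMP6 the count of 1 was 0 with a mean of at least 5 FPKM and 2 with equal FPKM totals, and 0 to 4 when 1 library was left out. Between genistein and BMP6 the count of 1 was 0 with a mean of at least 5 FPKM, with quantile normalization and with those 2 groups alone, and 0 to 2 when 1 library was left out. For the other pathway genes, the count of 11 after genistein was 18 with those 2 groups alone and 1 to 18 when 1 library was left out. The count of 0 after BMP6 was 1 with a pseudocount of 5 or median-of-ratios scaling, 2 with quantile normalization or equal FPKM totals, 3 when DMSO 1, genistein 2 and BMP6 1 were removed together, and 0 to 7 when 1 library was left out. The count of 0 between genistein and BMP6 was 2 with median-of-ratios scaling, quantile normalization or equal FPKM totals, 3 without those 3 libraries, and 0 to 2 when 1 library was left out. The cause of these moves was not tested, beyond the fewer libraries or genes that some settings hold.

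Deviations of 7 same-number pairs had correlations of -0.247 to 0.286, and 1 was over 0.1. Pairs of unlike number reached -0.594 and 0.594 (genistein 3 with BMP6 2 and BMP6 1). In groups this small the deviations of a group's libraries are bound to each other. These values therefore do not tell whether a replicate number marks a shared batch. With the replicate block, called members were 2 after genistein, 0 after BMP6 and 0 between the treatments, and other pathway genes 2 after genistein. Those 2 were higher and 0 were lower, against 4 higher and 7 lower in the main fit, so none of the lower calls held. CYP7A1 after BMP6 then had a limma adjusted p of 0.107.

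Of 323 alternative values for members, 285 kept direction and side of the threshold, 15 newly passed, 12 no longer passed, and 11 changed sign without passing in either fit. For other pathway genes these were 2082, 72, 64 and 107 of 2325. Scaling moved the median log2 difference of all genes after genistein by -0.102 (median-of-ratios) and -0.107 (equal totals), after BMP6 by -0.101 (equal totals), and between the treatments by -0.155 (median-of-ratios). Unknown depth, exact zeros and 2 BMP6 libraries limit what can be called.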
